A study of Mus musculus with 6 samples.

Results

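Tubulin genes were measured in the livers of 6 male mice, 3 wild-type (WT) and 3 with a liver-specific deletion of ChREBP (ChLO). A list of 10 tubulin genes was fixed by name, and every probe set whose only annotated gene was on that list was taken. The rule gave 19 of the 45101 probe sets on the array, and these covered 8 of the 10 genes. Tuba1b and Tuba1c were not covered, because the probe sets that carry their names are annotated to more than 1 gene, and no value is given for them. ChLO mice carry floxed Chrebp alleles (the gene is now called Mlxipl) and a Cre transgene under the promoter of albumin, a hepatocyte gene. The other cells of the liver thus still have the gene, and the labels do not say whether the WT mice carry a floxed allele or the transgene. All 6 mice were 12 weeks old and had been fed a diet with 60% sucrose for 1 week, so both groups differ in genotype alone as far as the labels say. Each array was made from total RNA of whole frozen liver, and the values are log2 MAS5 signals, in which 1 unit is a doubling of signal.

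Microtubules are polymers of dimers of 1 alpha and 1 beta tubulin, each encoded by several genes whose proteins (isotypes) are closely alike. In hepatocytes microtubules carry secretory vesicles, lipoproteins and endosomes between the membranes facing blood and bile. New tubulin needs the prefoldin and CCT chaperones and a set of folding cofactors, and cells lower tubulin mRNA when free dimers are plentiful, through TTC5, which recognises the first residues of nascent tubulin. Tubulins are also abundant in dividing cells, in fibroblasts and in blood-derived cells, all of which whole liver contains.

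Liver identity was clear on every array, with all 12 hepatocyte markers tested and Alb, albumin, between 15.31 and 15.85. Mlxipl, on its 1 probe set, read 12.61, 12.56 and 12.59 in WT 1, 2 and 3 and 10.34, 11.22 and 11.48 in ChLO 1, 2 and 3, a difference of -1.57 (SE 0.28) with a limma adjusted p of 0.185. Across all 12598 genes tested, 0 passed an adjusted p of 0.05, which is 0% of the background, and 1129 (8.96%) had an unadjusted p under 0.05. ChLO 3 stood apart from ChLO 1 and ChLO 2 in cytoskeletal, stromal and myeloid genes, so results below are given with and without it. Without ChLO 3 limma called 302 genes, or 2.4%.

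The 250 bases before the annotated start are shown for 5 of the genes whose brightest probe sets read higher in ChLO 1 and ChLO 2 than in every WT liver. They are shown because these genes read together in those arrays and because the data concern a DNA-binding factor. Sequences are from RefSeq on GRCm38.p6, in a promoter table that matched 8 of the 10 genes, and run 5′ to 3′ along the gene. Tubb4b is at chr2:25224703-25224952 on the minus strand, Tubb5 at chr17:35838302-35838551 on the minus strand and Tuba1a at chr15:98953502-98953751 on the minus strand. Tubb2a is at chr13:34078009-34078258 on the minus strand and Tuba8 at chr6:121210484-121210733 on the plus strand. Capitals mark matches on either strand to CACGTG (an E-box, the core that basic helix-loop-helix factors such as ChREBP bind, in pairs), CCAAT (the CCAAT box), TATAAA (the TATA box), TGACGTCA (the cAMP response element) and TGACTCA (the AP-1 site).
Tubb4b: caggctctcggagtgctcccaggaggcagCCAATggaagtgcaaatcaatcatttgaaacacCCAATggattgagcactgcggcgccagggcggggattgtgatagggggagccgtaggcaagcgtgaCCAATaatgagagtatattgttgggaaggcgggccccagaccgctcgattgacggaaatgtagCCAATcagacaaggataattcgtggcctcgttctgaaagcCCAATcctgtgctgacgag
Tubb5: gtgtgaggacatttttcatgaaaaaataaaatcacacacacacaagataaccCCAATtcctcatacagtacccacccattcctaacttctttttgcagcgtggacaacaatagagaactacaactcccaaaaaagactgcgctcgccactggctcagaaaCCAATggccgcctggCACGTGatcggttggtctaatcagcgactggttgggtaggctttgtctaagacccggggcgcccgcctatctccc
Tuba1a: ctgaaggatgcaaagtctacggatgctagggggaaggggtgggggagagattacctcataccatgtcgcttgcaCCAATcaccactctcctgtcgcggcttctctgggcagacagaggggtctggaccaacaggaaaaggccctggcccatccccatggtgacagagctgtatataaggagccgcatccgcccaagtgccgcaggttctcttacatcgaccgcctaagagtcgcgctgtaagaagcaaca
Tubb2a: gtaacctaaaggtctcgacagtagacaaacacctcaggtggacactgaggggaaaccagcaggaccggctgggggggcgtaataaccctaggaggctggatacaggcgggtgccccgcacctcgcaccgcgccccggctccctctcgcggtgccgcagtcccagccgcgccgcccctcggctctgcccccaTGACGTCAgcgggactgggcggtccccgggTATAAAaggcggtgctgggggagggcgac
Tuba8: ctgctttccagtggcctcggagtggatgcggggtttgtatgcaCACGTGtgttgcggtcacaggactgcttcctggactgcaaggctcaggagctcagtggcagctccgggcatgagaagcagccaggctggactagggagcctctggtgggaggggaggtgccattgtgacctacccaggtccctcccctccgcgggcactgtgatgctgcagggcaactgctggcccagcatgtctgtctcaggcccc
The Tubb4b window held 5 matches to CCAAT, Tubb5 held 2 and Tuba1a held 1, and CCAAT was found in 33.8% of the 32851 RefSeq promoter windows of the same length. A CACGTG stood 75 to 70 bases before the start of Tubb5 and another 207 to 202 bases before that of Tuba8, against 6.02% of all windows. Tubb2a alone of the 8 windows held TATAAA (12.4% of all windows) and TGACGTCA (1.55%), the latter 59 to 52 bases before the start. TGACTCA was found in 0 of the 8 and in 4.46% of all windows. These are matches of letters and not measured sites, and no binding data were used here.

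In livers without hepatocyte ChREBP, most tubulin genes read higher in ChLO 1 and ChLO 2 and at or below the WT level in ChLO 3. Of the 8 genes, 7 had a probe set past the filter on dim signal and were tested, and 0 of the 7 passed in limma. With every probe set as a unit, 8 of 27022 (0.0296%) passed, and 0 of the 15 tubulin probe sets past the filter did. All 7 had a positive difference, as had 56.5% of all genes tested, and their median was 0.90 against 0.06 over all genes. At an unadjusted p under 0.05 there were 2 higher (Tuba8 and Tubb6) and 0 lower, against 5.46% and 3.5% of all genes. The same 2 genes had no overlap between groups, with 9.04% of all genes higher in that way and 6.19% lower. Tuba8 passed the filter only through its ChLO signal, so these counts describe the genes tested and are no support for a difference. ChLO 1 and ChLO 2 were both above every WT array for 6 of the 7 genes, a pattern seen in 23.3% of all genes. For 4 of those 6, Tuba1a, Tubb2a, Tubb4b and Tubb5, ChLO 3 read below every WT array, as did 5.12% of all genes. Without ChLO 3 the median was 1.67 (0.06 over all genes), 6 of the 7 had an unadjusted p under 0.05 against 20.4% of all genes, and 0 passed after adjustment. ChLO 3 was set aside partly for its low values of cytoskeletal genes, which include tubulins. Differences and p-values without it, here and below, are thus a description and no support for a difference. Without ChLO 1 the median was 0.25. With arrays weighted by their agreement with their group, limma called 568 genes (4.51%), and Tuba8 (adjusted p = 0.0338) and Tubb6 (adjusted p = 0.0427) were among them. In that fit 5 of the 7 tubulins had an unadjusted p under 0.05 against 24.9% of genes. The weights were estimated from these same arrays, and Tuba8 passed the filter only through its ChLO signal, so these calls are no separate support. With quantile normalization, which changes the probe set of Tuba8, 1 tubulin had an unadjusted p under 0.05 (8.25% of genes) and 1 had no overlap (14.2%), and with a 60th percentile filter, which removes Tuba8, the counts were again 1 (10.1%) and 1 (16.5%).

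**Figure D1:**
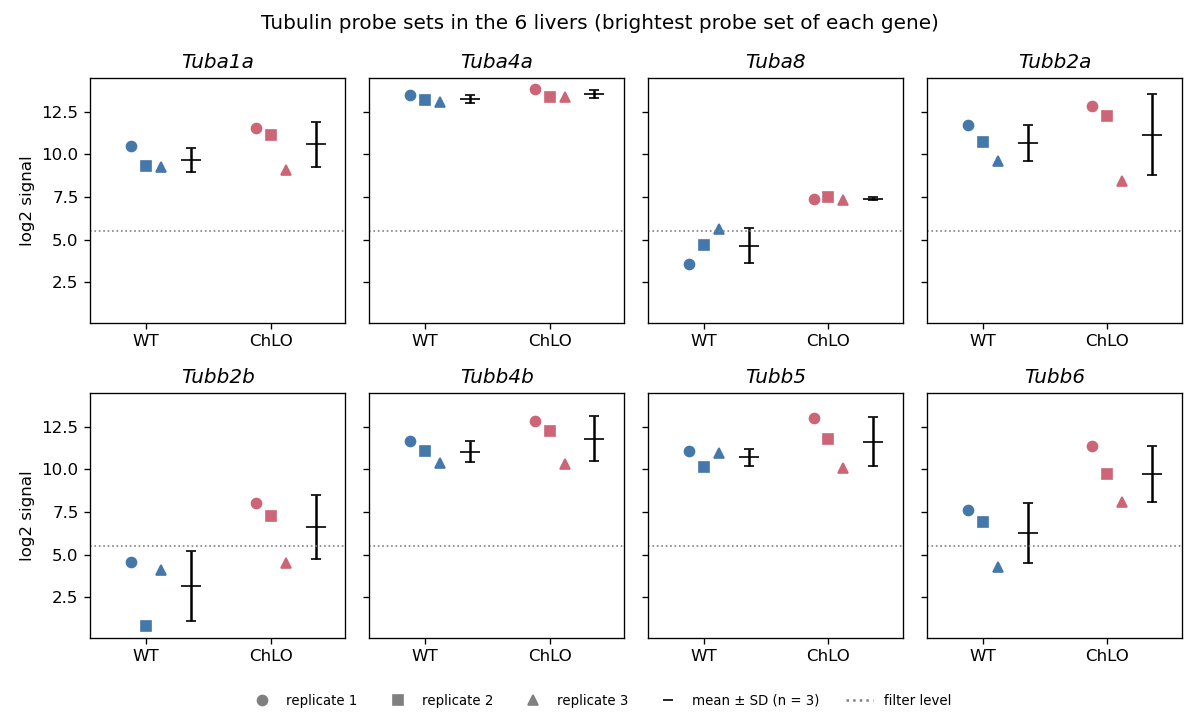
Log2 signal (y axis) of the brightest probe set of each of the 8 tubulin genes in WT and ChLO livers, with a symbol for each replicate, mean ± SD (n = 3) in black, and the filter level of 5.50 dotted. ChLO 3 (triangle) lay below all WT arrays for Tuba1a, Tubb2a, Tubb4b and Tubb5, whereas the 3 ChLO values of Tuba8 sat together between 7.31 and 7.47.

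Among the alpha tubulins, Tuba1a encodes the isotype of growing neurons and of many proliferating cells. Its probe set 1418884_x_at read 10.51, 9.31 and 9.27 in WT 1, 2 and 3 and 11.58, 11.13 and 9.09 in ChLO 1, 2 and 3. ChLO 1 and ChLO 2 stood above all WT arrays and ChLO 3 just below them, so the groups overlapped. The means were 9.70 ± 0.70 and 10.60 ± 1.32 (SD, n = 3 each), a difference of 0.90 (SE 0.63) with a limma adjusted p of 0.679. Without ChLO 3 it was 1.65 (SE 0.38) with an adjusted p of 0.0683, and without ChLO 1 it was 0.41. The x in the probe set's name marks probes that can bind related transcripts, so signal from the near-identical Tuba1b and Tuba1c mRNAs cannot be told apart from that of Tuba1a.

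Tuba4a, whose protein is made without the C-terminal tyrosine of most other alpha isotypes, was the steadiest of the tested genes. Its brightest probe set, 1417373_a_at, read 13.50, 13.18 and 13.05 in WT and 13.81, 13.38 and 13.39 in ChLO 1, 2 and 3. Only ChLO 1 exceeded WT 1, and the whole range over the 6 livers was less than 1 log2 unit. The difference was 0.28 (SE 0.20, limma adjusted p = 0.679), and 0.35 without ChLO 3, 0.14 without ChLO 1 and 0.19 without WT 3. With the mean of its probe sets it was 0.0017. A second probe set of the gene, 1417374_at, differed by 0.23, and the dim 1417375_at, whose WT arrays spread from 5.05 to 7.59, differed by -0.51.

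Tuba8, a divergent alpha isotype, was the tested tubulin gene with the smallest p, and like Tuba4a and Tubb6 it did not have ChLO 3 below the WT livers. Probe set 1419518_at read 3.58, 4.68 and 5.64 in WT and 7.41, 7.47 and 7.31 in ChLO 1, 2 and 3. All 3 ChLO livers, ChLO 3 included, were above every WT liver, and they lay within a range of 0.2 log2 units of one another. The difference was 2.76 (SE 0.58), with an unadjusted p of 0.00147 and a limma adjusted p of 0.249, and it was 2.81 without ChLO 3 (adjusted p = 0.0893). The WT mean of 4.63 ± 1.03 (SD, n = 3) lay under the filter level of 5.50, with 2 of the 3 WT arrays below it, so the gene passed the filter through its ChLO signal and no fold is given. Its other probe set, 1446771_at, read 2.90, 6.09 and 6.73 in WT and 5.95, 7.21 and 7.15 in ChLO, with overlapping groups and a difference of 1.53. With quantile normalization this probe set was the brighter of the pair and stood for the gene, the groups overlapped and the difference was 1.55 (limma adjusted p = 0.674).

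Among the beta tubulins, Tubb5 encodes the most widely expressed isotype. Probe set 1416256_a_at read 11.05, 10.15 and 10.94 in WT and 13.00, 11.77 and 10.10 in ChLO 1, 2 and 3. ChLO 1 was above the highest WT liver by almost 2 log2 units, ChLO 2 was above it by less than 1, and ChLO 3 was at the level of WT 2. The means were 10.72 ± 0.49 and 11.62 ± 1.45 (SD, n = 3 each), and the difference of 0.91 (SE 0.65) had a limma adjusted p of 0.685. Without ChLO 3 it was 1.67 (SE 0.40, adjusted p = 0.0734) and without ChLO 1 it was 0.22. The second probe set of Tubb5, 1455719_at, differed by 0.75 and by 1.16 without ChLO 3.

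Tubb4b, the isotype found in most tissues and in cilia, had 6 probe sets that did not move together. The brightest, 1423642_at, read 11.65, 11.09 and 10.39 in WT and 12.85, 12.26 and 10.31 in ChLO 1, 2 and 3. ChLO 1 and ChLO 2 were above all WT livers and ChLO 3 below them. The difference was 0.77 (SE 0.62, limma adjusted p = 0.709), and 1.52 (SE 0.36) without ChLO 3 with an adjusted p of 0.0721. Without ChLO 1 it was 0.25 (adjusted p = 0.955) and without WT 3 it was 0.44. The other 5 probe sets were dimmer and differed by -0.28 to -1.96. Of these, 1438622_x_at was past the filter and read 6.31, 7.37 and 6.76 in WT and 4.18, 5.28 and 6.87 in ChLO, so that ChLO 1 and ChLO 2 were the lowest where the bright probe set had them highest. With the mean of all Tubb4b probe sets past the filter in place of the brightest, the difference was -0.30. Which transcripts the dim probe sets bind was not tested.

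**Figure D2:**
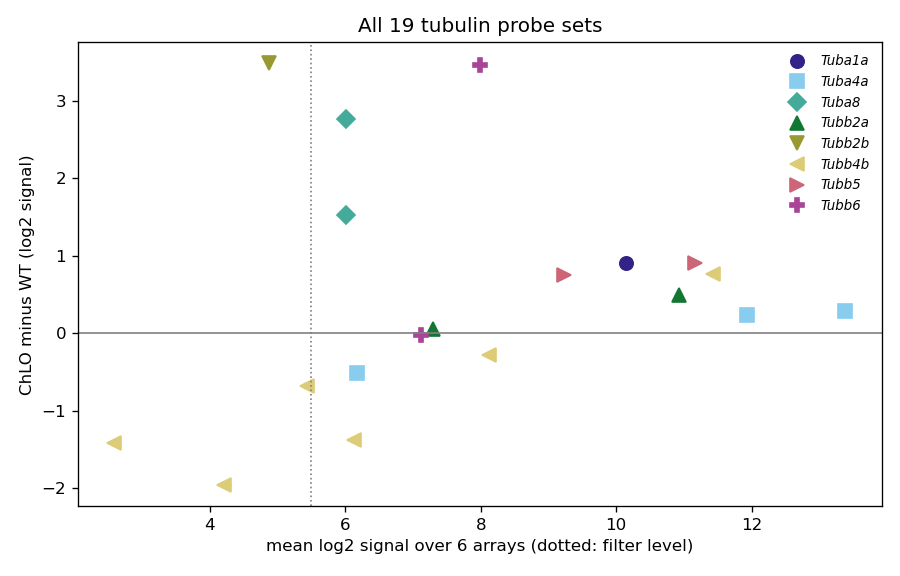
Difference between ChLO and WT in log2 signal (y axis) against mean log2 signal over the 6 arrays (x axis) for all 19 tubulin probe sets, with a colour and symbol for each gene. The probe sets of Tubb4b lie between 0.77 and -1.96, and 4 of the 19 lie left of the dotted filter level.

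Tubb2a encodes a beta isotype rich in brain, and its gene lies on chromosome 13, as does that of its close relative Tubb2b. Probe set 1427347_s_at read 11.71, 10.71 and 9.61 in WT and 12.83, 12.26 and 8.41 in ChLO 1, 2 and 3. ChLO 3 was lower than any other liver, and the ChLO values covered over 4 log2 units. The means were 10.68 ± 1.05 and 11.17 ± 2.41 (SD, n = 3 each), a difference of 0.49 (SE 1.09) with a limma adjusted p of 0.899. The sign depended on single livers, since the difference was 1.87 without ChLO 3 but -0.34 without ChLO 1, -0.06 without ChLO 2 and -0.04 without WT 3. The dimmer 1427838_at had the same order in ChLO, at 8.70, 8.62 and 4.66 against 7.83, 7.36 and 6.62 in WT. The s in the name of the bright probe set marks probes shared by several transcripts.

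Tubb2b did not pass the filter and was not tested with the other genes. Probe set 1452679_at read 4.56, 0.78 and 4.08 in WT and 8.04, 7.29 and 4.53 in ChLO 1, 2 and 3. ChLO 1 and ChLO 2 stood well above every WT liver and ChLO 3 lay within the WT range. With no filter, over 18193 genes, the difference was 3.48 (SE 1.24), with an unadjusted p of 0.0214 (7.89% of genes had one under 0.05 there) and a limma adjusted p of 0.588.

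Tubb6, a beta isotype known to be induced in regenerating muscle, had the largest difference of the 7 genes tested. Probe set 1416431_at read 7.59, 6.92 and 4.26 in WT and 11.37, 9.71 and 8.06 in ChLO 1, 2 and 3. All ChLO livers were above all WT livers, although ChLO 3 exceeded WT 1 by less than 0.5 log2 units. The means were 6.26 ± 1.76 and 9.71 ± 1.65 (SD, n = 3 each), and the difference of 3.46 (SE 1.02), 11.0-fold, had an unadjusted p of 0.00953 and a limma adjusted p of 0.451. The low value of WT 3 lay under the filter level, and without WT 3 the difference was 2.46. Without ChLO 3 it was 4.29 (SE 0.93, adjusted p = 0.0587). The second probe set of Tubb6, 1446353_at, read 7.24, 7.00 and 7.15 in WT and 6.88, 6.80 and 7.63 in ChLO, a difference of -0.02, and it did not share the pattern of the first. With the mean of both probe sets the difference was 1.72.

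**Figure D3:**
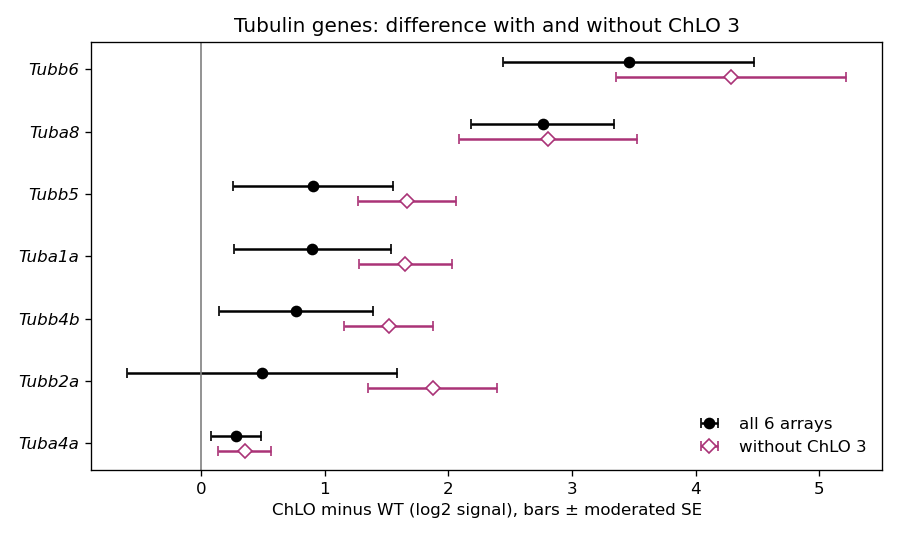
Difference between ChLO and WT in log2 signal (x axis, bars ± moderated SE of limma) for the 7 tested tubulin genes with all 6 arrays (filled) and without ChLO 3 (open). Tubb2a went from 0.49 to 1.87 and Tuba8 from 2.76 to 2.81 when ChLO 3 was left out.

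By array, the median of the 7 genes from their WT means was 0.61, 0.03 and -0.43 in WT 1, 2 and 3 and 2.16, 1.43 and -0.60 in ChLO 1, 2 and 3. WT 1 was the highest WT liver for 6 of the 7 genes, all but Tuba8. Summed on the linear scale, the signals of the 4 tested beta genes came to 8868, 5108 and 4110 in WT 1, 2 and 3 and to 25508, 14159 and 2981 in ChLO 1, 2 and 3. ChLO 1 and ChLO 2 were above the WT range and ChLO 3 below it. The sums of the 3 alpha genes, most of it Tuba4a, were 13083, 9924 and 9155 in WT and 17591, 13090 and 11445 in ChLO 1, 2 and 3. Here ChLO 1 alone stood clear of WT, with ChLO 2 level with WT 1 and ChLO 3 inside the WT range. Probe sets differ in affinity, so these sums describe the arrays and give no proportions of protein or mRNA.

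Of 8 related gene lists, 7 concern the wider tubulin system and had median differences of 0.02 to 0.30, and in none of the 8 did a gene pass an adjusted p of 0.05 in limma. For tubulin folding (prefoldin, CCT and the cofactors) all 21 genes were tested, 0 had an unadjusted p under 0.05 and the median difference was 0.11. Pfdn4, a prefoldin subunit, read 9.55, 9.27 and 9.21 in WT and 10.19, 9.88 and 9.46 in ChLO, a difference of 0.50 (SE 0.23). For nucleation of microtubules, 16 of 17 genes were tested, 0 had an unadjusted p under 0.05 and the median was 0.16. Haus8, a subunit of the augmin complex, differed by 1.51 (SE 0.73) with overlapping groups. Of 10 tubulins outside the set, 4 were tested with 0 at that level. Tubg1, the gamma tubulin of the nucleating ring, differed by -0.65 (SE 0.30) and Tubd1, delta tubulin, by -0.13 (SE 0.34). Tube1, epsilon tubulin, differed by 1.58 (SE 0.97) with overlapping groups. It read 3.18, 6.64 and 6.52 in WT 1, 2 and 3, and without WT 1 the difference was 0.45. The WT mean of Tube1, 5.45, lay under the filter level, so the gene passed the filter through its ChLO signal. Tubb1, the platelet isotype, was higher in all ChLO than in all WT livers, as were 9.04% of all genes, by 0.73 (SE 0.43). The neuronal Tubb3 was dim on every array, between 2.99 and 6.10.

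Of 18 genes for tubulin modification and mRNA control, 14 were tested, with 1 higher and 1 lower at an unadjusted p under 0.05 and a median of 0.13. Over all genes tested the shares at that level were 5.46% higher and 3.5% lower. Ttc5, the autoregulation factor, read 8.27 to 8.72 in the 3 WT livers and 8.92 to 9.24 in the 3 ChLO livers. All ChLO livers were above all WT livers, as for 9.04% of all genes, by 0.57 on average (SE 0.21, limma adjusted p = 0.507). Atat1, which acetylates alpha tubulin inside the microtubule, read 8.94, 8.23 and 8.67 in WT and 7.72, 8.03 and 7.95 in ChLO. All ChLO livers were below all WT livers, as for 6.19% of all genes, and the difference was -0.71 (SE 0.25, limma adjusted p = 0.500). As for Tuba8 and Tubb6, and unlike Tuba1a, Tubb2a, Tubb4b and Tubb5, both genes had ChLO 3 on the same side of WT as the other ChLO livers.

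Of 25 stabilisers and plus-end proteins 21 were tested, with a median of 0.17. At an unadjusted p under 0.05, where 8.96% of all genes were, there was 1 gene. That gene was Clasp1, which anchors growing ends. It read 9.61, 9.79 and 9.79 across WT and 10.26, 10.14 and 10.22 in ChLO, a difference of 0.48 (SE 0.16, limma adjusted p = 0.469). Of 15 destabilisers and severing factors 8 were tested, with a median of 0.06 and 1 gene at that level. It was Stmn1, stathmin, which sequesters tubulin dimers. It read 9.63, 8.80 and 8.98 across WT and 10.39, 10.25 and 9.40 in ChLO. ChLO 3 lay within the WT range, and the difference was 0.87 (SE 0.33, limma adjusted p = 0.512). Of 23 motor genes 21 were tested, with 0 at an unadjusted p under 0.05 and a median of 0.02.

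Genes of the other cytoskeletal filaments also read higher in ChLO 1 and ChLO 2. Of 18 genes of actin and intermediate filaments, all tested, 17 read higher with a median of 0.83, where 56.5% of all genes read higher. There were 7 with an unadjusted p under 0.05, none lower, against 5.46% of all genes higher and 3.5% lower. Without ChLO 3 limma called 9 of the 18, all higher, where 1.6% of all genes were called higher. ChLO 3 was set aside partly for its low values of these same genes, so that count is a description. Vim, vimentin, read 10.11, 9.07 and 9.55 in WT and 12.25, 11.91 and 9.78 in ChLO 1, 2 and 3, and Krt8, a hepatocyte and bile duct keratin, likewise had its 2 highest values in ChLO 1 and ChLO 2. Actb, beta actin, was an exception at -0.26 (SE 0.19). By array the list median stood between -0.20 and 0.20 in WT, at 1.68 in ChLO 1, at 1.19 in ChLO 2 and at -0.09 in ChLO 3.

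The 5 genes outside the set closest to the mean profile of the 7 tubulins, by root mean square distance between deviations from the WT mean over the 6 arrays, were Cd44, Smox, Tpm1, Pcdh17 and Id1. Cd44, the hyaluronan receptor, was the nearest at a distance of 0.14 log2 units, and read 9.17, 8.59 and 8.54 in WT and 11.18, 10.40 and 8.64 in ChLO 1, 2 and 3. Smox, spermine oxidase, and Tpm1, an actin-binding tropomyosin, both lay at 0.18. Pcdh17, a protocadherin, and Id1, a repressor of helix-loop-helix factors, both lay at 0.20. For all 5, ChLO 1 was the highest liver and ChLO 2 the next. That order came with the choice of the genes, since the tubulin mean profile has it too. Among the tubulins themselves, Tuba1a (0.40), Tubb4b (0.45) and Tubb5 (0.52) were nearer to their mean profile than Tuba8 (1.46) and Tubb6 (1.70). Tuba4a (0.98) and Tubb2a (1.01) lay between. Each tubulin is part of that mean, yet the nearest, Tuba1a, ranked only 87 by distance among all genes tested, so the profile is not particular to tubulins.

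Markers of several other cell types, lymphocytes not among them, also read higher in ChLO 1 and ChLO 2. In bulk liver the cells that made a signal are not known, and more cells of a type and more RNA per cell cannot be told apart. Over all genes tested, 56.5% read higher in ChLO. For infiltrating myeloid cells 8 of 10 markers were tested and all 8 read higher, with the list median 2.17 in ChLO 1, 1.67 in ChLO 2 and -0.20 in ChLO 3 (log2, relative to WT). The summed linear signal was 4027 to 4380 in WT and 3847 to 22784 in ChLO. Differences ran from 0.07 for Spi1 to 2.61 for Lcn2, which at 13.25 was the brightest of the list in ChLO 1. Of the 8, 1 was higher at an unadjusted p under 0.05 in limma, against 5.46% of all genes. For stellate cells and fibroblasts, 11 of 12 markers read higher, with medians of 1.24, 1.28 and -0.05 in ChLO 1, 2 and 3 and sums of 12627 to 19426 in WT and 15215 to 35272 in ChLO. For cholangiocytes 6 of 7 tested markers read higher, with medians of 0.73, 0.80 and -0.42 and sums of 3654 to 4154 in WT and 3037 to 7502 in ChLO. Most of each sum was the single gene Cdh1, at 11.65 to 11.89 in WT and 12.52, 12.11 and 11.38 in ChLO 1, 2 and 3. The defining keratins were dim. Krt19 read 5.21 to 5.68 in WT and 5.91 to 6.30 in ChLO, and Krt7 read 4.59 to 6.75 in WT and 5.04 to 5.90 in ChLO. The claudin Cldn4 differed by 2.74 with no overlap, and 9.04% of all genes were higher in that way. The WT mean of Cldn4, 5.38, lay under the filter level. Cldn4 thus passed the filter through its ChLO signal, and its separation is no support for a difference. Macrophage markers had medians of 0.19, 0.74 and -0.12 in ChLO 1, 2 and 3, and sums of 17071 to 18342 in WT and 16586 to 27718 in ChLO. Endothelial markers had medians of 0.15, 0.45 and -0.03, with sums of 10316 to 12910 in WT and 11534 to 15248 in ChLO. The sum of ChLO 1 was within the WT range, and its median was just above the WT medians of -0.17 to 0.11. Only 4 of 10 lymphocyte markers passed the filter, and their medians of -0.05, 0.13 and 0.46 in ChLO 1, 2 and 3 were highest in ChLO 3, with sums of 335 to 383 in WT and 290 to 472 in ChLO.

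Proliferation markers, 9 of 12 tested, had medians of 1.26, -0.81 and -0.07 in WT 1, 2 and 3 and of 1.42, 1.32 and -0.53 in ChLO 1, 2 and 3, with sums of 1411 to 3184 in WT and 947 to 2958 in ChLO. WT 1 was thus high for these markers, as it was for most tubulins. Of the 9 markers, 7 read higher in ChLO and 2 lower, Rrm2 with a difference of -1.15 and Mcm2 with -0.09. The WT means of Mki67 (4.97) and Birc5 (5.35) lay under the filter level, so both passed the filter through their ChLO signal. Hepatocyte markers, all 12 tested and all lower, had medians of -0.58, -0.43 and -0.10 in ChLO 1, 2 and 3 and sums of 500389 to 594931 in WT and 372179 to 522004 in ChLO. As a measure of RNA integrity, the 3′ control probe set of Actb exceeded the 5′ one by 1.13 to 1.38 log2 units in WT, by 0.84 in ChLO 1, by 1.03 in ChLO 2 and by 1.46 in ChLO 3. The same measure for Gapdh was -0.31 to -0.13 in WT and -0.25, -0.20 and -0.14 in ChLO 1, 2 and 3, all within the WT range. The part of these cell type, proliferation and RNA measures in the tubulin differences was not tested.

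**Figure D4:**
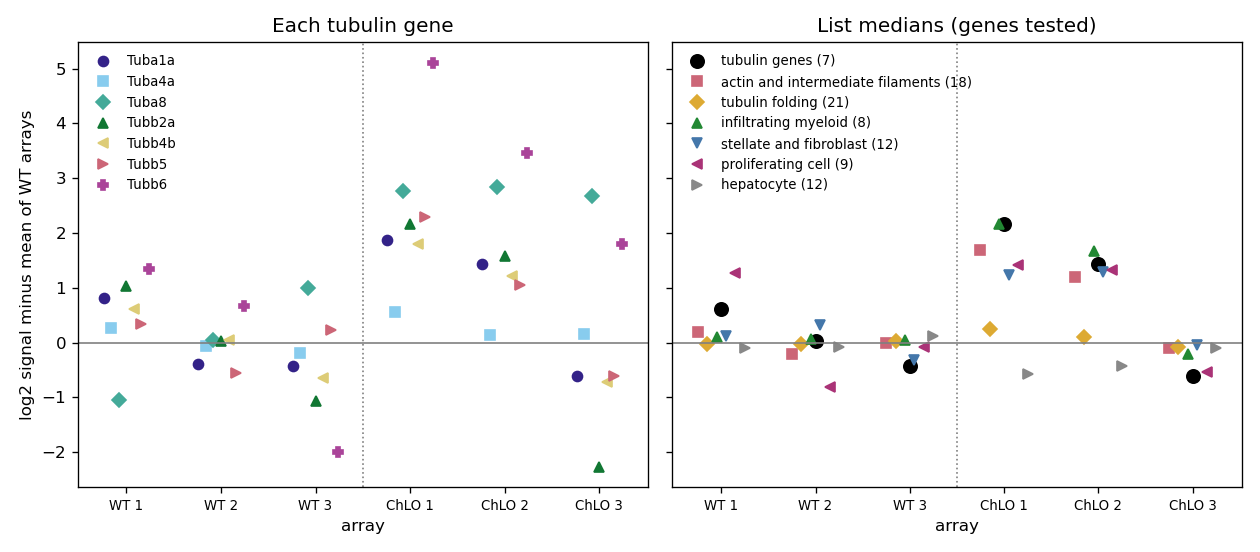
Log2 signal minus the mean of the WT arrays (y axis) in each of the 6 arrays (x axis), for each tested tubulin gene (left) and for the median of the 7 tubulins beside medians of 6 other gene lists, with genes tested in brackets (right). The tubulin median was 2.16, 1.43 and -0.60 in ChLO 1, 2 and 3, beside 2.17, 1.67 and -0.20 for myeloid markers and -0.58, -0.43 and -0.10 for hepatocyte markers.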

How the data were processed

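Per the labels' protocols, total RNA of each liver was biotin-labelled and hybridised to Affymetrix arrays. The authors deposited 1 table of log2 signals. Per the submitters' processing notes the signals are from MAS5. In the deposited values, the mean linear signal after trimming 2% from each end was 500.0 on all 6 arrays, as MAS5 scaling gives. Detection calls were not used here, and a genome build (GRCm38.p6) was used for the promoter windows alone.

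The 64 control probe sets were dropped, as were those with a mean below the 40th percentile (5.50). Each gene was read by its brightest probe set over all arrays. Of the 19 tubulin probe sets, 15 passed, for 7 genes. ChLO was compared with WT by limma 3.58.1 in R 4.3.3 (lmFit, eBayes with trend), Benjamini-Hochberg adjusted over 12598 genes, with a threshold of 0.05. SE is limma's moderated error, and p-values measure the spread between mice. The procedure was tested on simulated data. Only 3 arrays per group limits precision.

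Members, lists and tests were chosen with earlier results of these data known. Text genes are all members, up to 4 of each list with the smallest p, some fixed genes and the 5 nearest profiles. Alb, Krt7, Krt19, Cldn4, Cdh1, Lcn2 and Spi1, listed markers, were named after their values were seen. Alternatives covered scaling, filters, variance models, probe sets, the replicate number as a block and leaving out each array.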

Additional observations from a re-analysis of the deposited data

How the results depend on the processing

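Of 117 values of single tubulin genes under the alternatives, 111 kept their direction and their side of the threshold. Part of this count was fixed in advance, since some alternatives change only the filter or the variance model and not the difference. As 0 tubulins passed in the main fit, keeping a side meant staying short of the threshold. Leaving out each array in turn gave 0 to 302 called genes (302 without ChLO 3, 4 without ChLO 1), 0 tubulin genes called, 2 to 6 tubulin genes with an unadjusted p under 0.05 (5.56% to 20.4% of all genes), 2 to 6 with no overlap (21.6% to 39.3% of all genes; both highest without ChLO 3) and a median tubulin difference of 0.25 to 1.67. The fit without ChLO 3 is a description, since that array was set aside partly for these same values. Tubb2a turned to -0.04 without WT 3, -0.34 without ChLO 1 and -0.06 without ChLO 2, and reached 1.87 without ChLO 3. Tubb4b turned to -0.30 with the mean of its probe sets, because the dimmer ones differ in sign. The cause of the other changes was not tested unless given here. With array weights, estimated from these same arrays, 568 genes were called (4.51%). Among them were 2 tubulins, Tuba8 at 2.73 (adjusted p = 0.0338) and Tubb6 at 3.68 (adjusted p = 0.0427), and 5 tubulins had an unadjusted p under 0.05 (24.9% of genes). Over the 10 alternatives that left out no array and could give a value, the limma adjusted p of Tuba8 ranged from 0.0338 to 0.674. Called genes numbered 3 with no filter, 3 without the x and s probe sets and 14 at an adjusted p under 0.10, none of them a tubulin. There was 1 tubulin that had an unadjusted p under 0.05 and 1 had no overlap with quantile normalization, where Tuba8 is read by its other probe set at 1.55, and with the 60th percentile filter, where Tuba8 is not tested. With the replicate number as a block 1 gene was called and 4 tubulins had an unadjusted p under 0.05 (10.6% of genes), 0 of them called. Deviations of same-numbered arrays correlated at 0.30, -0.17 and 0.06. WT 1 correlated best with ChLO 1, and WT 2 and WT 3 with another number. Deviations were taken from each group's own mean of 3 arrays, so these values cannot settle whether same-numbered arrays share more than a number. Spike-in scaling moved the median of all genes from 0.06 to 0.31. Dim signals limit Tuba8 and Tubb6, whose WT values lie partly under the filter level, and Tubb2b, whose WT values all do.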
